A study of Mus musculus with 9 samples.

Results

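The 10 genes described here are immediate early genes: Fos, Fosb and Fosl1, which encode proteins of the Fos family; Jun, Junb and Jund, which encode those of the Jun family; the zinc finger factor gene Egr1; Myc; and the immediate early response genes Ier2 and Ier3. They were picked by a rule on gene names that uses no measured value, although earlier results of these data were known when the set was drawn up, out of 27945 genes with a symbol and an estimated count in mouse liver. All 10 had counts, and 9 of them passed the filter on low counts and were tested along with the rest of the 18113 genes that passed it. Fosl1 did not pass, and Fosb passed only through its counts in the treated group.

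Polyadenylated RNA from mouse liver was sequenced in 9 libraries, with 3 libraries in each of the groups control, model and treated. The series title concerns damage to the liver by gefitinib, an inhibitor of the epidermal growth factor receptor tyrosine kinase. The labels do not name what the treated mice received, and give no dose, time, sex, age, strain, genotype or batch for any group. They call the material both liver and liver cells. Whether each library is a different animal is not stated. The p-values below therefore set differences between groups only against the spread among libraries within groups, which may be partly technical.

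Immediate early genes are those that a cell transcribes within minutes of a growth factor, cytokine or stress signal, from factors already present and without new protein synthesis. Their transcripts are short-lived, and many of their products are transcription factors that act on a later set of genes. Fos and Jun proteins pair through leucine zippers to form AP-1, which binds TGACTCA and related sequences; Jun proteins can pair with each other, whereas Fos proteins need a partner. In liver these genes are known for their rise during injury and after partial removal of the organ, when hepatocytes re-enter the cell cycle, and in cells disturbed while tissue is being collected.

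Promoters are shown for 4 AP-1 genes that differed between groups and whose windows held an element marked below. The window of Jund, an AP-1 gene that also differed, held no such element and is not printed. For Fos, Fosb, Jun and Junb the 250 bases before the RefSeq transcription start in GRCm38.p6 are given 5′ to 3′ on the gene's strand. Capitals mark TGACG, the core bound by CREB and ATF proteins, in Fos, Fosb and Junb, and TGACATCA, a variant AP-1 element, in Jun.
Fos: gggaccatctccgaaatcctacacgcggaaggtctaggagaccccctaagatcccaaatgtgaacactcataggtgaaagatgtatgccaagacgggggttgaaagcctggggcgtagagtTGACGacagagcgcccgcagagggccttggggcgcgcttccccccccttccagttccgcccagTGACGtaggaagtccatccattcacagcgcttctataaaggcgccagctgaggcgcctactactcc
Fosb: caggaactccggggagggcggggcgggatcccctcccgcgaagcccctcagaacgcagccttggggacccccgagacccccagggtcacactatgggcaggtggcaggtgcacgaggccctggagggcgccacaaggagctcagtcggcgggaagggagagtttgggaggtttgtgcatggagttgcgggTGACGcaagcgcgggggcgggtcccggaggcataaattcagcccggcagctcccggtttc
Jun: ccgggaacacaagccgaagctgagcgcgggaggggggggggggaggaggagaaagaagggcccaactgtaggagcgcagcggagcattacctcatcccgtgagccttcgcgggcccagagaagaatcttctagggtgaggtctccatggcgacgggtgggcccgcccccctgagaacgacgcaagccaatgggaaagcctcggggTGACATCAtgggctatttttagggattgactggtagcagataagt
Junb: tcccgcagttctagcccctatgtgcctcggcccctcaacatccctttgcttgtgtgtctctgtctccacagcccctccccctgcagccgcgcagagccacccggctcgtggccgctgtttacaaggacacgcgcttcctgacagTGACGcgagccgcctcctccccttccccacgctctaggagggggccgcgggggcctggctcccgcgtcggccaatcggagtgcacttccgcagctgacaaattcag
The Fos sequence is chr12:85473640-85473889 on the plus strand, that of Fosb chr7:19310046-19310295 on the minus strand, that of Jun chr4:95052223-95052472 on the minus strand and that of Junb chr8:84978749-84978998 on the minus strand. In Fos, TGACG began 129 and 66 bases before the start and TATAAA 33 bases before it. The Fosb core began 60 bases, the Junb core 106 bases and the TGACATCA of Jun 45 bases before the start.

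RefSeq windows were searched for 6 of the 10 genes, which added Ier3 and Jund to those printed. Windows on chr18, where Egr1 lies, were left out for these genes, so Egr1 was not searched. Fosl1, Ier2 and Myc were not searched either. The Jund window, chr8:70697489-70697738 on the plus strand, does not reach the start of the counted gene at 70698949. It held none of the motifs searched and is counted among the 6. Of these 6, 3 held TGACG on either strand, against 17.8% of 32851 mouse promoter windows of 250 bases. TGACATCA was in 1 of 6 and in 2.93% of all windows, and GCGGGGGCG, an element that EGR proteins bind, in 1 of 6, Fosb, and in 2.57% of all. GGGCGG, an SP1 element, was in 4 of 6 and in 32.7% of all, TATAAA in 1 of 6 and in 12.4%, and the kB site by its usual consensus in 3 of 6 and in 7.25%. None of the 6 held TGACGTCA, which 1.55% of all windows held and which contains TGACG, nor TGACTCA or TGAGTCA (4.46%), CACGTG (6.02%) or the CArG box bound by serum response factor (1.47%). These are matches of letters only. Bases farther than 250 before the start were not searched, so the lack of a CArG box or other element holds for these windows alone.

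Totals were 56440871 to 60665156 estimated counts per library. Levels are CPM, the counts scaled to a common library size after TMM scaling, given as mean ± SD of 3 libraries, and FPKM, which is scaled per transcript length, where genes are compared with each other. Adjusted p-values are from edgeR's quasi-likelihood test over all 18113 genes, and a gene was called at an adjusted p under 0.05. Model replicate 1 stood apart from the other model libraries in transcripts of skeletal muscle. The 13 muscle markers summed to 187 CPM there, to 127 to 163 CPM in the treated libraries, while the remaining 5 libraries had 1.27 CPM or less. Hepatocyte markers were abundant in all 9 libraries, with Alb at 46592 CPM or more.

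The treated libraries held the highest levels of most of these genes. Against model libraries, 6 of the 9 tested genes rose, namely Fos, Fosb, Jun, Junb, Jund and Ier3, and none was called lower. Fosb entered the test only through the group where it was high, so its place in these counts, medians and p-values is no support for them. Of all genes tested, 5.21% were called higher and 4.44% lower in this comparison. Against control libraries, 6 again rose, with Myc in place of Junb, where 9.36% of all genes were called higher and 8.47% lower. Between model and control libraries, Fos fell and none of the other 8 was called, with 0.519% of all genes called higher and 0.596% lower. The treated libraries serve in the first and second of these comparisons and the model libraries in the first and the third, so the sets of calls are not independent. The median log2 fold change of the 9 genes was 2.11 for treated against model, 1.76 for treated against control and -0.07 for model against control. The medians of all tested genes lay between -0.0090 and 0.0052.

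**Figure D1:**
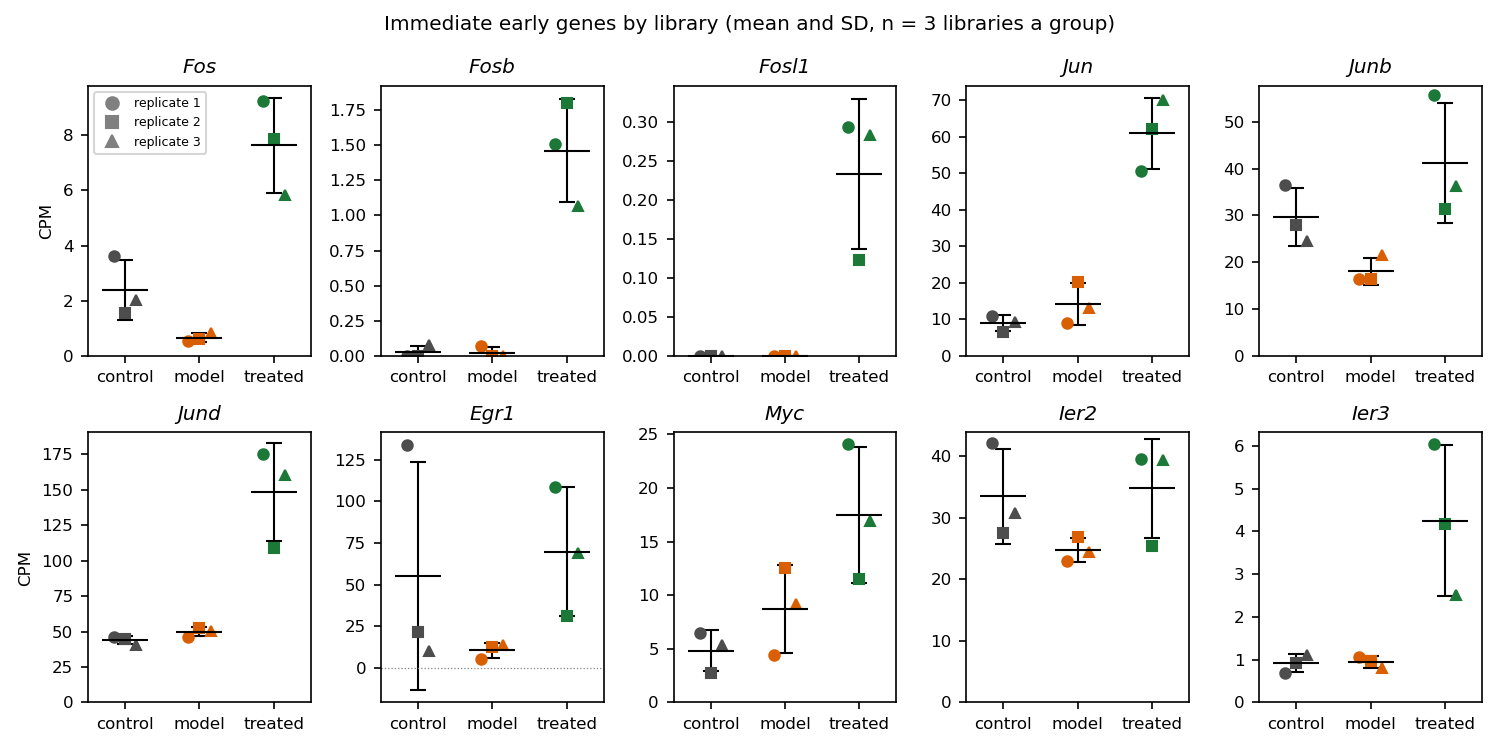
CPM of each of the 10 genes (vertical axes, each with its own scale) in control, model and treated libraries. Each symbol is a library, its shape gives the replicate number, and bars give the mean ± SD of 3 libraries, where the bar of Egr1 in control libraries extends below 0 and those of Fosb in control and model libraries are cut off at 0; Fos, Fosb, Fosl1, Jun, Jund and Ier3 had all 3 treated libraries above the other 6.

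Fos, the founding member of its family, was lowest in model and highest in treated libraries. It lies at chr12:85473890-85477273 on the plus strand (GRCm38). Its level was 3.61, 1.56 and 2.02 CPM in control replicates 1 to 3, 0.540, 0.616 and 0.840 CPM in the model replicates, and 9.23, 7.85 and 5.82 CPM in the treated replicates. The 3 groups did not overlap: each treated library was above each control library, and each control library above each model library. Relative to model, treated libraries were 11.4-fold higher (log2 fold change 3.52, SE 0.37, adjusted p = 0.00046). Relative to control they were 3.18-fold higher (1.67, SE 0.34, adjusted p = 0.00701).

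The fall of Fos in model relative to control was 3.59-fold (log2 fold change -1.84, SE 0.36, adjusted p = 0.0377). This call was close to the threshold. It was lost in 10 of 17 alternative analyses, among them those without model replicate 1 (adjusted p = 0.116), model replicate 2 (adjusted p = 0.140), model replicate 3 (adjusted p = 0.0859), control replicate 1 (adjusted p = 0.0760) or control replicate 3 (adjusted p = 0.0666). Its sign was negative in all 17. The rises in treated libraries were called in 17 of 17 for both comparisons.

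Fosb, whose product dimerises with Jun proteins and is known for long-lasting splice forms in brain, was near 0 outside the treated group. It lies at chr7:19302696-19310051 on the minus strand. Its estimated counts were 0, 0 and 4 in control, 4, 0 and 0 in model, and 103, 118 and 68 in treated libraries, the last equal to 1.51, 1.80 and 1.07 CPM. Summed over libraries, 289 counts in the treated group stood against 4 in each of the other groups. The ratio of treated to control was 59.2 (95% exact binomial interval 22.9 to 219) and that of treated to model 63.3 (24.5 to 234), where the intervals cover counting error only. Since the gene passed the filter only through the treated group, its calls are given as a description (adjusted p = 0.0170 against model and 0.0104 against control). The call against model was lost without model replicate 3, treated replicate 1 or treated replicate 2, with adjusted p up to 0.0600, and the call against control was made in 17 of 17 alternatives.

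Fosl1, which encodes Fra-1, had no count in any of the 6 control and model libraries and 20, 8 and 18 counts in the treated libraries, or 0.293, 0.122 and 0.283 CPM. It lies at chr19:5447547-5455946 on the plus strand. With a floor of 3 counts set for the other group of 3 libraries, the ratio of treated to control was 12.6 and that of treated to model 13.4. These ratios leave out counting error. The lower limits of the exact binomial interval, as used for Fosb, were 9.81 against control and 10.5 against model. Fitted without the filter on low counts, over 27945 genes, it was not called (adjusted p = 0.141 against model and 0.105 against control). Part of the gene overlaps Ccdc85b on the opposite strand, which had 8.60 ± 1.40, 9.18 ± 1.58 and 8.67 ± 0.941 CPM in control, model and treated libraries. The strand setting of the counting is not given in the sources used here, so counts of these neighbours may not be fully separable.

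Jun, the c-Jun gene, was higher in every treated library than in any other. It is a gene of a single exon at chr4:95049034-95052222 on the minus strand. It was at 10.8, 6.58 and 9.39 CPM in control, 8.97, 20.4 and 13.1 CPM in model and 50.8, 62.1 and 70.1 CPM in treated libraries. Control and model libraries overlapped, and the lowest treated library was above the highest model library. The rise was 4.31-fold against model (log2 fold change 2.11, SE 0.30, adjusted p = 0.00403) and 6.82-fold against control (2.77, SE 0.31, adjusted p = 0.000629). Model against control gave a log2 fold change of 0.66 (SE 0.30, adjusted p = 0.364). Junos, an overlapping antisense gene, had 236 counts in the 9 libraries together, against 11981 for Jun in the treated group alone.

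Jund, whose product is present in resting cells and is known as the more stable Jun protein, had the smallest spread between control libraries of the Jun genes relative to its mean. It lies in a single exon at chr8:70698949-70700616 on the plus strand. Its level was 46.5, 44.5 and 40.7 CPM in control, 46.5, 52.5 and 50.6 CPM in model and 175, 109 and 161 CPM in treated libraries. The 6 control and model libraries formed a narrow band, and all treated libraries lay well above it. The rise was 2.98-fold against model (log2 fold change 1.57, SE 0.16, adjusted p = 0.000346) and 3.38-fold against control (1.76, SE 0.16, adjusted p = 7.26e-05). Model against control gave 0.18 (SE 0.15, adjusted p = 0.677).

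Junb, whose product often restrains Jun and cell division, had its lowest mean in model libraries, as Fos did. It lies in a single exon at chr8:84976910-84978718 on the minus strand. Levels were 36.5, 28.0 and 24.5 CPM in control, 16.3, 16.4 and 21.5 CPM in model and 55.6, 31.4 and 36.3 CPM in treated libraries. Every model library was below every control and every treated library, whereas treated and control libraries overlapped. Junb rose 2.28-fold in treated against model (log2 fold change 1.19, SE 0.23, adjusted p = 0.0117), a call lost without model replicate 1 (adjusted p = 0.0569). Model against control gave -0.72 (SE 0.23, adjusted p = 0.186) and treated against control 0.47 (SE 0.23, adjusted p = 0.187), neither of which was called. In DESeq2 the model against control value had an adjusted p of 0.0498.

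**Figure D2:**
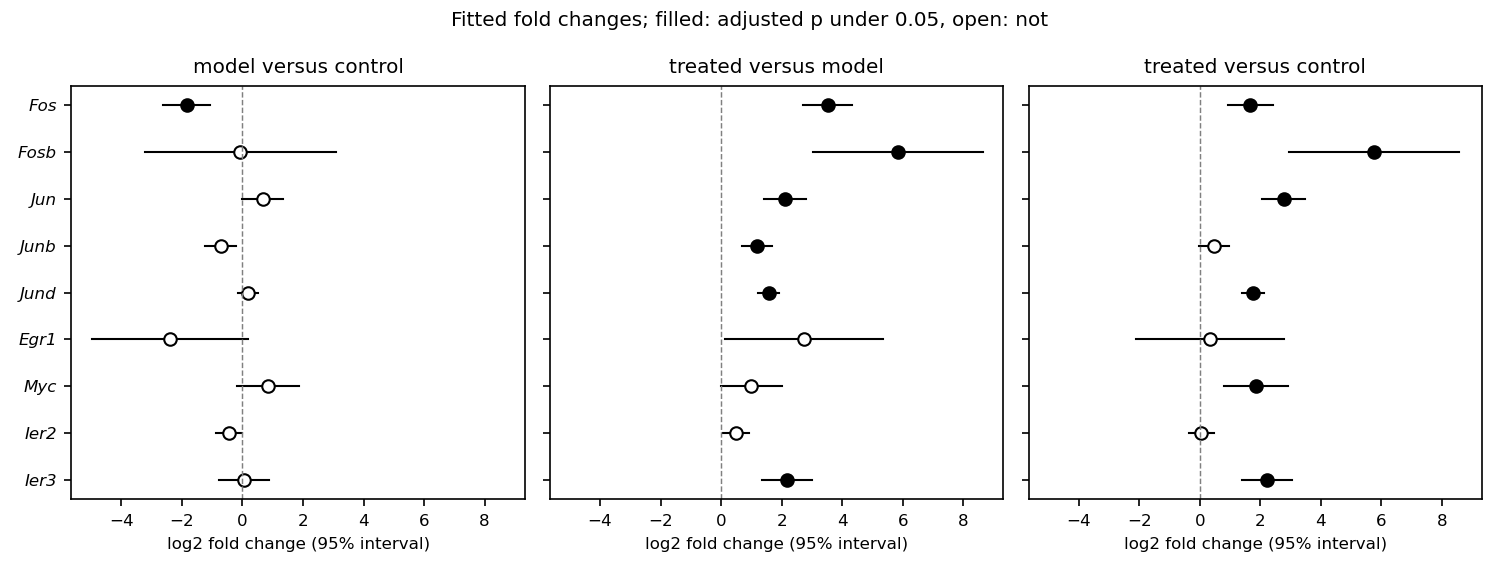
Fitted log2 fold change (horizontal axis) with its 95% interval for the 9 tested genes in each comparison; filled points had an adjusted p under 0.05 and open points did not. Fos lies at -1.84, 3.52 and 1.67 from left to right, and the intervals of Egr1 and Fosb are the widest.

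Per transcript length, the pool of Fos and Jun family transcripts was dominated by Jund in every group. The summed FPKM of the 3 Jun genes, the 3 Fos genes and Fosl2, the fourth Fos family gene, was 39.5 ± 5.87 in control, 39.1 ± 4.92 in model and 132 ± 27.8 in treated libraries. These FPKM carry no TMM scaling. On log2(FPKM + 0.1), the median fold change of all tested genes was 0.15 for treated against model and 0.18 for treated against control. With TMM-scaled counts these medians were 0.0052 and -0.0090, so the sums are not on the scale of the CPM. Jund made up 55.6% ± 3.49 of that sum in control, 65.8% ± 2.42 in model and 64.8% ± 3.54 in treated libraries. The share of Junb was 34.3% ± 2.95, 21.9% ± 3.06 and 16.5% ± 2.74, and that of Jun 5.89% ± 1.23, 9.59% ± 3.28 and 14.5% ± 4.06 in the same order. Control libraries did not overlap with the others in the shares of Junb and Jund. No test was made of these shares, and an exact permutation test of 3 libraries against 3 could not give a p below 0.1.

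Fos proteins need a partner, and their transcripts were a small part of this pool. The 4 Fos family genes made up 4.25% of the summed FPKM in control, 2.74% in model and 4.29% in treated libraries. Fos itself took 2.08% ± 0.722, 0.613% ± 0.118 and 2.42% ± 0.684. Fosl2 took 2.17% ± 0.519, 2.12% ± 0.106 and 1.61% ± 0.227, a mean share above that of Fos in control and model libraries. Fosb reached 0.178% and Fosl1 0.0753% in treated libraries. With CPM per kilobase of the longest transcript in place of FPKM, Fosb took 0.293% there, and Fosl2 3.17%, 3.11% and 2.36% in control, model and treated libraries. In FPKM, the level of Fos in the treated group was 3.14, against 18.4 for Jun, 22.1 for Junb and 86.3 for Jund.

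**Figure D3:**
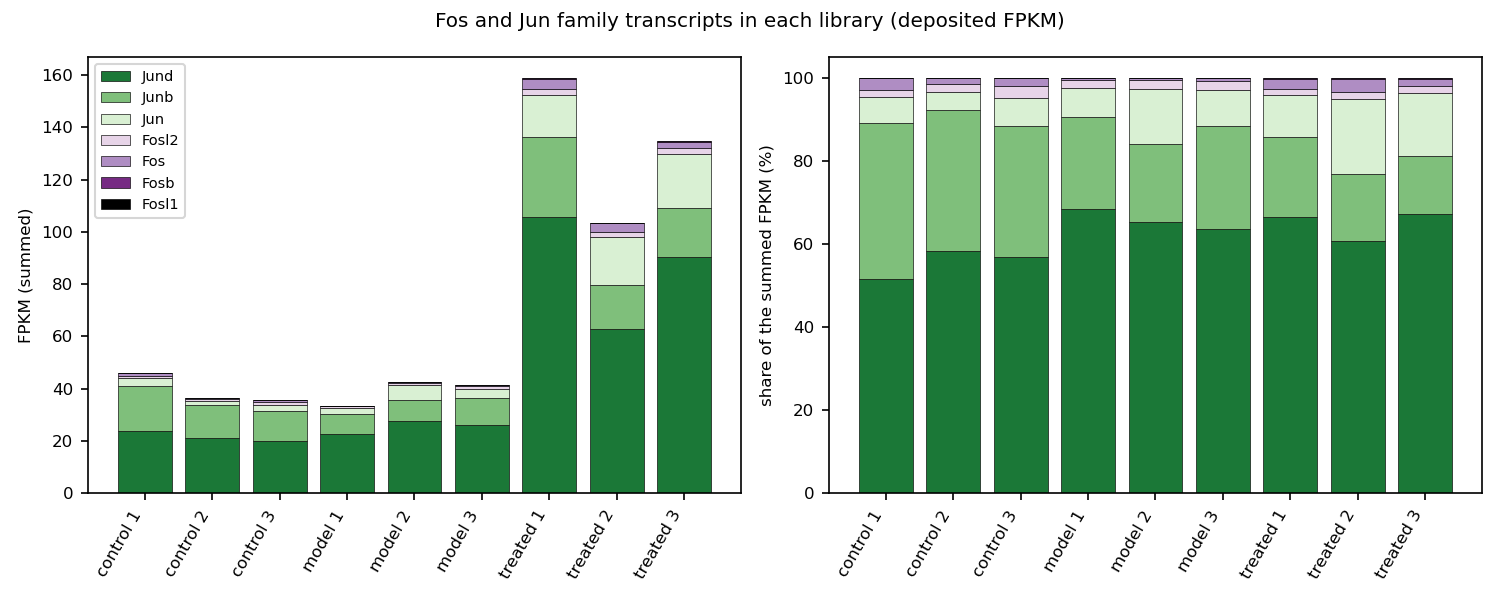
Left, summed FPKM of the 7 Fos and Jun family genes in each library; right, the share of each gene in that sum in percent. The sum is higher in the 3 treated libraries, Jund is the widest segment in each library, and Junb is wider in control than in the other libraries.

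Egr1, a zinc finger factor induced by growth factors and stress, had the widest spread within the control group among the 8 of these genes with counts in every library. It lies at chr18:34859823-34864984 on the plus strand. It was at 134, 21.4 and 10.1 CPM in control, 5.26, 12.3 and 14.0 CPM in model and 109, 31.4 and 68.9 CPM in treated libraries. The highest control library was 13.3-fold above the lowest, against 2.66-fold within model and 3.46-fold within treated libraries. No comparison was called: the log2 fold change was 2.73 for treated against model (SE 1.08, adjusted p = 0.189), -2.39 for model against control (SE 1.07, adjusted p = 0.400) and 0.34 for treated against control (SE 1.01, adjusted p = 0.872).

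All treated libraries lay above all model libraries for Egr1, with a fitted difference of 6.62-fold and a 95% interval of 1.08-fold to 40.5-fold. DESeq2 gave an adjusted p of 0.0343 for this comparison. Control replicate 1 set the other values: without it the log2 fold change of model against control was -0.58 in place of -2.39, and that of treated against control 2.15 in place of 0.34 (adjusted p = 0.120).

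Myc, which drives genes of ribosome production and growth, was highest in treated libraries and was called only against control. It lies at chr15:61985391-61990350 on the plus strand. Levels were 6.43, 2.75 and 5.34 CPM in control, 4.39, 12.6 and 9.22 CPM in model and 24.1, 11.5 and 16.9 CPM in treated libraries. Treated libraries were all above control libraries, and model libraries overlapped with both groups. The difference was 3.61-fold against control (log2 fold change 1.85, SE 0.46, adjusted p = 0.0259), 1.00 on the log2 scale against model (SE 0.45, adjusted p = 0.215) and 0.85 for model against control (SE 0.45, adjusted p = 0.461). The call against control was lost in 6 of 17 alternatives, without control replicate 2 (adjusted p = 0.0703), control replicate 3 (adjusted p = 0.0772), treated replicate 1 (adjusted p = 0.0750) or treated replicate 3 (adjusted p = 0.0642) among them.

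Of the IER genes, Ier3 rose in both comparisons of the treated libraries and Ier2 was called in none, and the difference between them was not tested. Ier3, known for roles in cell survival and stress signalling, lies at chr17:35821684-35822923 on the plus strand. It was at 0.697, 0.923 and 1.12 CPM in control, 1.06, 0.966 and 0.805 CPM in model and 6.04, 4.17 and 2.52 CPM in treated libraries. Control and model libraries overlapped closely, and each treated library was above them. The rise was 4.49-fold against model (log2 fold change 2.17, SE 0.37, adjusted p = 0.00541) and 4.64-fold against control (2.21, SE 0.38, adjusted p = 0.00261), called in 17 of 17 alternatives in both.

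Ier2, a single-exon gene at chr8:84661331-84662854 on the minus strand, was at 42.1, 27.5 and 30.7 CPM in control, 23.0, 26.8 and 24.5 CPM in model and 39.4, 25.4 and 39.3 CPM in treated libraries. Model libraries were all below control libraries, by 1.35-fold in the fit (log2 fold change -0.43, SE 0.19, adjusted p = 0.353), and overlapped with treated ones. Treated against model gave 0.49 (SE 0.19, adjusted p = 0.149), which passed the threshold without treated replicate 2 (adjusted p = 0.0435), and treated against control 0.06 (SE 0.19, adjusted p = 0.887).

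Counts of libraries that did not overlap describe the same data without a model. In treated against model, 7 of the 9 tested genes had all treated libraries higher, where 16.2% of all genes did so. For treated against control these were 6 of 9 and 19.3%. Both counts include Fosb, whose place among the tested genes was fixed by its treated libraries. In model against control, Fos, Junb and Ier2 had all model libraries lower, where 10.2% of all genes did so and 9.71% had all model libraries higher.

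Within each group, 1 library held the same rank for most of these genes. Among the 8 genes with counts in every library, control replicate 1 was the highest control library for 7, all but Ier3, and treated replicate 1 the highest treated library for 7, all but Jun. Model replicate 1 was the lowest model library for 7, all but Ier3. Over all genes tested, these libraries held those places for 33.2%, 34.1% and 34.5%. The 8 genes are not independent of each other, so that these counts describe 3 libraries and were not tested.

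The deposited files also divide the counts of each gene among its annotated transcripts. The 4-exon Fos transcript held 97.9% of the gene's counts over all libraries, and the 4-exon Fosb transcript 96.6%. For Fosl1, 82.6% were on the coding transcript and 17.4% on a form that retains an intron. Jun, Junb, Jund and Ier2 have 1 annotated transcript of 1 exon, and Egr1 and Ier3 have 1 transcript of 2 exons. Counts of Myc were divided among 6 transcripts, of which 2 have an equal length of 2338 bases, so the split between them is uncertain.

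Part of a list of other immediate early genes rose in the treated libraries too. Of 44 tested, 13 rose and none was called lower against model, and 19 rose and none was called lower against control, with medians of 1.11 and 0.84 on the log2 scale. Over all genes 5.21% and 9.36% were called higher in these comparisons. Between model and control 1 rose, Atf3, and the median was -0.16. Klf6, a zinc finger factor of injured liver, was at 7.42 ± 1.28 CPM in control, 10.6 ± 0.590 in model and 59.1 ± 7.22 in treated libraries. Its rise was 5.56-fold against model (adjusted p = 5.59e-05) and 7.96-fold against control (adjusted p = 2.76e-06).

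**Figure D4:**
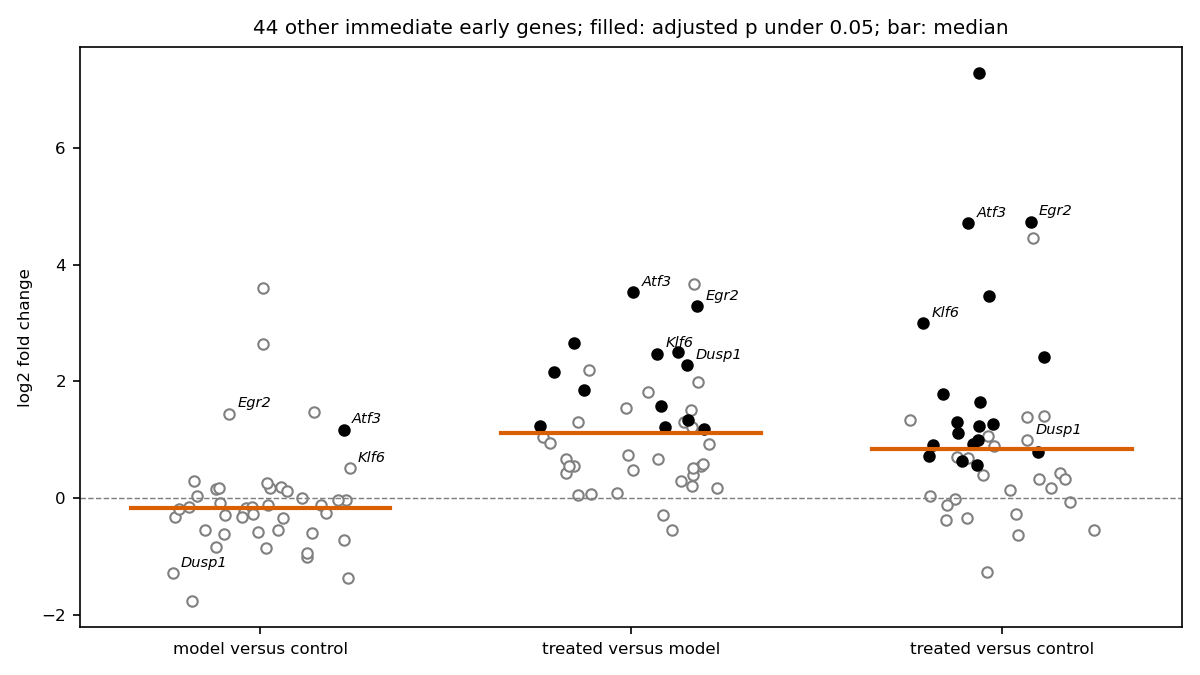
Log2 fold change of 44 other immediate early genes (points, spread sideways for legibility) in each comparison; filled points had an adjusted p under 0.05 and bars give the median, at -0.16, 1.11 and 0.84. Atf3 is filled in each comparison, and Klf6, Egr2 and Dusp1, the last of which with Egr2 was picked for labelling after its values were seen, are filled against model.

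Among 20 other AP-1 and related leucine zipper partners, 3 rose and 1 fell against model, and 4 rose and 2 fell against control, with medians of 0.26 and 0.27. Maff, like Atf3, is also on the previous list, and both were among the 3 that rose against model. The shares over all genes were 5.21% higher and 4.44% lower against model, and 9.36% higher and 8.47% lower against control. Atf3, a stress-induced partner of Jun proteins that also belongs to the previous list, was at 1.12 ± 0.386 CPM in control, 2.53 ± 0.157 in model and 29.3 ± 4.64 in treated libraries. It rose 2.26-fold in model against control (adjusted p = 0.0491), 11.6-fold in treated against model (adjusted p = 5.59e-05) and 26.1-fold in treated against control (adjusted p = 5.16e-06). Fosl2, which encodes Fra-2, was at 9.84 ± 1.45, 9.40 ± 1.31 and 20.995 ± 2.01 CPM and rose 2.23-fold against model (adjusted p = 0.00164). Maf, a large leucine zipper factor, fell 2.37-fold in treated against control, from 35.1 ± 4.004 to 14.8 ± 3.01 CPM (adjusted p = 0.000962). In model against control Atf3 alone was called and the median was -0.08. That call was at the threshold and was lost without control replicate 2 or control replicate 3, where 0 genes of all 7 lists were called. Only 1 gene of all 7 lists was called when model replicate 1, 2 or 3 was left out in turn, and likewise with FPKM at either pseudocount.

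Genes upstream of the immediate early response had small fold changes by median. Of 32 genes of serum response factor, its cofactors and the MAP kinase pathway, none was called in model against control, 5 rose and 1 fell against model, and 5 rose and 4 fell against control. Medians were -0.05, 0.11 and 0.10, and over all genes 4.44% were called lower against model and 8.47% against control, with 5.21% and 9.36% higher. Mapk3, which encodes the kinase ERK1, rose 1.59-fold (adjusted p = 0.00780) and Nras, a small GTPase of the pathway, 1.51-fold (adjusted p = 0.00865) in treated against model. Against control, Nras rose 1.74-fold (adjusted p = 0.000943) and Mrtfa, a cofactor of serum response factor, 1.78-fold (adjusted p = 0.00320).

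Genes linked to AP-1 activity had the highest median changes in treated libraries of the 7 lists. Of 20 tested of 24 listed, 10 rose and none was called lower against model and 12 rose and none was called lower against control, with medians of 2.08 and 2.70, where 5.21% and 9.36% of all genes were called higher. Mmp13, a collagenase, went from 0.161 ± 0.0795 CPM in control and 0.556 ± 0.227 in model to 13.4 ± 3.57 in treated libraries, 24.0-fold above model (adjusted p = 0.000184) and 82.2-fold above control (adjusted p = 1.97e-05). Vim, which encodes the filament protein vimentin, rose 4.40-fold against model (adjusted p = 6.80e-05) and 5.66-fold against control (adjusted p = 1.18e-05). Ccnd1, the cyclin D1 gene, was the 1 gene of the list called in model against control, from 8.12 ± 2.66 to 26.9 ± 4.77 CPM (3.31-fold, adjusted p = 0.0152), while Fos fell in the same comparison. The Ccnd1 call was lost without control replicate 2 or control replicate 3. With any of the model replicates left out, only 1 gene of the 7 lists was called in that comparison. The median of the list was 0.52 there.

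The EGR list of 13 cofactors and targets was mixed. Its genes Tgfb1 and Sphk1 are also on the list of genes linked to AP-1. Against model 5 rose and 2 fell, against control 4 rose and 3 fell, and in model against control 1 rose, with medians of 0.62, 0.59 and 0.11. Of all genes, 5.21% rose and 4.44% fell against model, 9.36% rose and 8.47% fell against control, and 0.519% rose in model against control. Icam1, an adhesion molecule, rose 1.83-fold in model against control (adjusted p = 0.0184) and 2.80-fold in treated against control (adjusted p = 0.000110), the first of which was lost without control replicate 2 or control replicate 3. With any of the model replicates left out, only 1 gene of all the lists was called in model against control. Pdgfa, a growth factor gene, rose from 2.12 ± 0.327 to 8.47 ± 2.98 CPM in treated against control (adjusted p = 0.000855), and Thbs1, which encodes thrombospondin 1, rose 3.92-fold in treated against model (adjusted p = 0.0131). F3, the tissue factor gene, fell 2.72-fold in treated against model (adjusted p = 0.00959).

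Genes linked to MYC had small median changes. Of 28 growth genes, 1 rose against model and none was called lower, and 10 rose and 1 fell against control, with medians of 0.13 and 0.30. Of all genes 5.21% rose against model, and 9.36% rose and 8.47% fell against control. Whether the comparisons differ in this was not tested. None was called in model against control, where the median was 0.16. Nop58, a nucleolar protein gene, rose 1.85-fold against model (adjusted p = 0.0126) and 2.39-fold against control (adjusted p = 0.00108), and Mybbp1a, another nucleolar protein gene, rose 1.52-fold against control (adjusted p = 0.00298).

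Of 13 partners of MYC, 2 rose and 2 fell against model, 1 rose and 1 fell against control and none was called in model against control, with medians of 0.12, -0.15 and -0.15. Against control, where 9.36% of all genes rose and 8.47% fell, these counts were near the background, and against model the shares over all genes were 5.21% and 4.44%. Max, the obligate partner of MYC, rose 1.46-fold in treated against control (adjusted p = 0.0183). Mlxipl, which encodes the glucose-sensing factor ChREBP, fell 1.59-fold against model (adjusted p = 0.0177) and 1.95-fold against control (adjusted p = 0.00149). Mycl fell 1.99-fold against model (adjusted p = 0.00620).

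The genes most like each called member over the 9 libraries were taken as those with the smallest root mean square difference of mean-centred log2 CPM, among 12020 genes, or 12021 for Fosb. These values describe likeness of pattern in libraries that share groups and carry no test. Btg2, a growth-arrest gene also on the immediate early list, was nearest to Fos at 0.53, with 10.7 ± 3.92, 6.55 ± 1.72 and 37.1 ± 5.30 CPM in control, model and treated libraries, and Ndrg1 next at 0.64. Tlr13 at 0.22 and C3ar1 at 0.23, receptors of innate immunity, were nearest to Jun. Tlr13 was at 1.65 ± 0.512, 2.47 ± 1.21 and 10.1 ± 0.417 CPM.

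Tmem43 at 0.14 and Rhoc at 0.20 were nearest to Jund, Lama2 at 0.20 and Tead1 at 0.25 to Junb, and Il7r at 0.64 and Eef1a2 at 0.84 to Fosb. The cytoskeletal genes Tubb2b at 0.29 and Actg1 at 0.30 were nearest to Ier3, and Ddr1 and Eif4e3, both at 0.31, to Myc. Among the members called, the closest pair was Jund and Ier3 at 0.46, followed by Jund and Myc at 0.53. Fos was nearest to Ier3 at 0.92 and stood 1.04 from Jun.

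Markers of other liver cell types moved with the treated group as well. The 12 macrophage and Kupffer cell markers summed to 178 to 281 CPM in control, 263 to 330 CPM in model and 768 to 788 CPM in treated libraries, and 4 of 12 rose against model, 6 of 12 in treated against control and 3 of 12 in model against control. Among them Gpnmb, a marker of lipid-associated macrophages, had a mean of 1.56 CPM in control libraries but 254 CPM in treated ones, and Clec4f, a marker of resident Kupffer cells, 102 and 112 CPM. Mpeg1 had means of 28.9 CPM in control and 183 CPM in treated libraries. Only Cd163, at 11.1 and 2.68 CPM, and Timd4, at 7.90 and 5.85 CPM, had a lower mean in treated than in control libraries, and neither fall was called. The 10 markers of stellate cells and fibroblasts summed to 208 to 284, 155 to 202 and 411 to 496 CPM in the same order, with 4 of 10 higher in treated against model, and 4 higher and 1 lower in treated against control. Col3a1, a collagen gene, had means of 31.9, 26.3 and 147 CPM, and Lrat, a marker of resting stellate cells, 10.6, 6.63 and 4.20 CPM. Endothelial markers summed to 332 to 421, 142 to 168 and 83.5 to 130 CPM, and all 10 fell in treated against control, 4 in treated against model and 6 in model against control, the comparison in which Fos was called lower. Hepatocyte markers summed to 103604 to 115287 CPM in control, 101582 to 107286 CPM in model and 78119.6 to 96942.9 CPM in treated libraries. Of these 12, 5 fell and none rose in treated against control, 3 fell and 1 rose in treated against model, and none was called in model against control. Shares of all genes called higher were 5.21% in treated against model, 9.36% in treated against control and 0.519% in model against control. Those called lower were 4.44%, 8.47% and 0.596% in that order. In bulk RNA, a change in the number of cells of a type and a change in RNA per cell cannot be told apart, and the part of these cell types in the differences of these genes, the fall of Fos in model libraries included, was not tested.

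Neutrophil markers differed widely between treated libraries. The 10 markers summed to 3.92 to 6.46 CPM in control, with Ly6g and Mmp8 at 0 in all 3, to 14.8 to 30.003 CPM in model, and to 33.8, 12.6 and 183 CPM in treated replicates 1 to 3. Among treated libraries Fos was highest in replicate 1 and lowest in replicate 3, and Jun highest in replicate 3 and lowest in replicate 1. Cholangiocyte markers summed to 49.1 to 63.9, 41.5 to 68.6 and 52.2 to 76.9 CPM, and lymphocyte markers to 4.77 to 12.8, 9.41 to 11.6 and 5.79 to 9.68 CPM, with overlap between the groups in both.

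Skeletal muscle transcripts separated model replicate 1 and the treated libraries from the rest, and 8 of the 13 markers (Ckm, Mb, Myh1, Myh2, Pvalb, Tcap, Tnnc2 and Tnni2) were at 0 in all controls. Model replicate 1 had the highest muscle sum of the 9 libraries, 187 CPM, and the lowest Fos level, 0.540 CPM, and its Jun level, 8.97 CPM, was within the range of the control libraries. Leaving it out gave log2 fold changes of treated against model of 3.39 for Fos (adjusted p = 0.00373), 1.86 for Jun (adjusted p = 0.00675) and 1.53 for Jund (adjusted p = 0.00279). Then 5 of the 9 genes were called higher in place of 6, Fosb among the 5, and 525 of 18859 genes in place of 943 of 18113. With that library out, all treated and no model libraries carry these transcripts, so the values do not bear on them, and the part of muscle transcripts in the results was not tested.

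**Figure D5:**
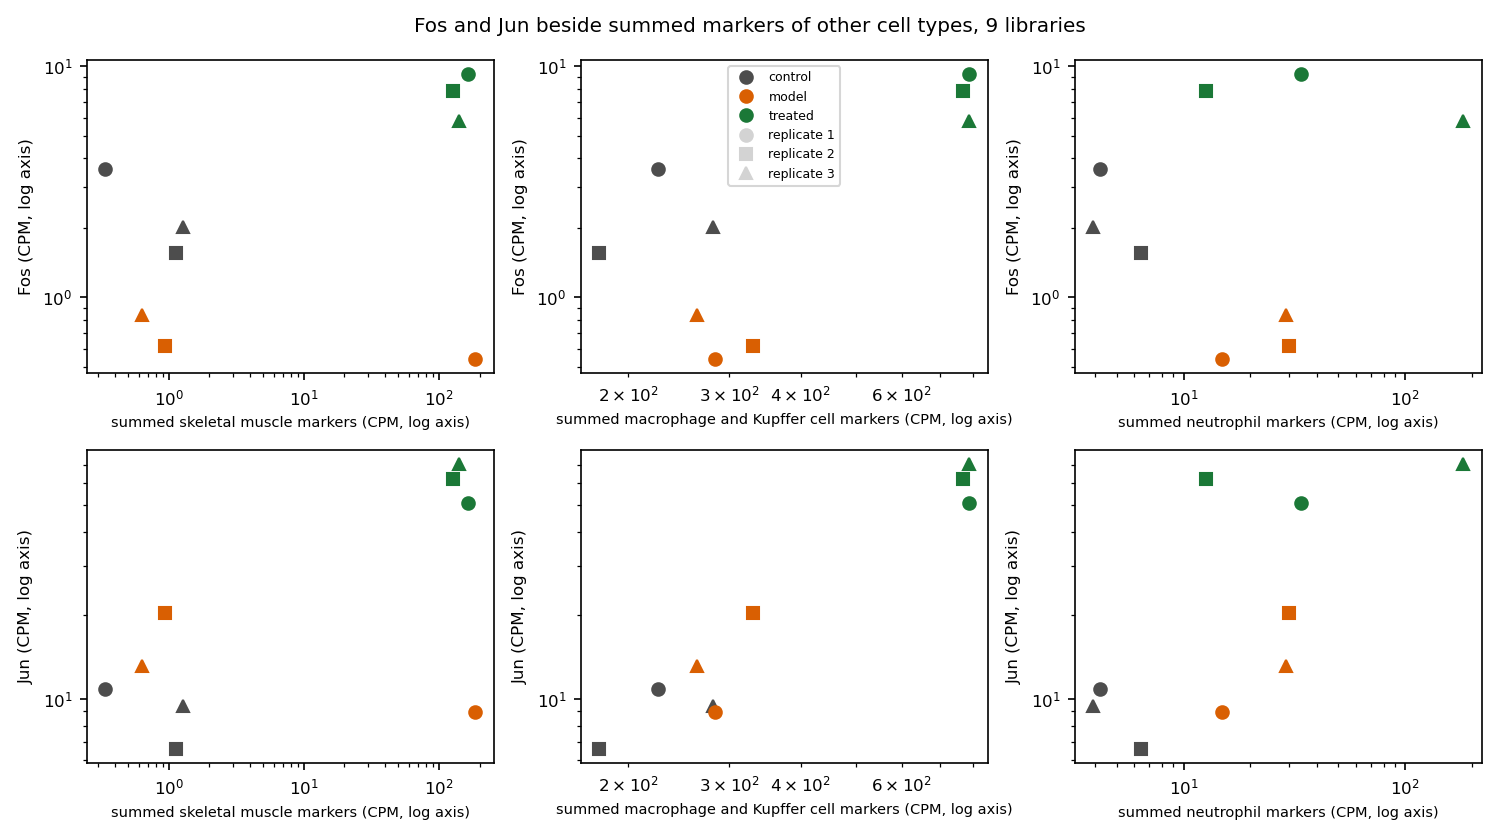
CPM of Fos (top) and Jun (bottom) against the summed CPM of markers of skeletal muscle, of macrophages and Kupffer cells and of neutrophils in the 9 libraries, all axes logarithmic. Model replicate 1 has 187 CPM of muscle markers with 0.540 CPM of Fos, and the treated libraries have 768 to 788 CPM of macrophage and Kupffer cell markers and the highest Fos and Jun levels.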

How the data were processed

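Poly(A) RNA of 9 mouse liver libraries was analysed, grouped by the labels as control, model and treated (n = 3 each). The submitters' processing notes name HISAT2. Not given in the sources used here are its version, the program that counted, its strand setting and the gene models. Per the file headers, the authors deposited FPKM and estimated counts for genes and for transcripts. The deposited estimated counts are whole numbers, so no rounding was needed, and how reads of overlapping genes were assigned is not stated. Gene coordinates are those of the files; 25083 of 27945 genes have the same start and end in GENCODE M21, an annotation of GRCm38.

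Counts were tested with edgeR 4.0.16 (R 4.3.3) by robust quasi-likelihood F tests in 1 fit over 9 libraries with TMM scaling, filterByExpr (minimum count 10, minimum total 15) and Benjamini-Hochberg adjustment over 18113 genes in each of 3 comparisons. Standard errors were derived from the fold change and F. Log2 CPM for likeness used a prior count of 2. The procedure was tested on simulated data. Totals were 56440871 to 60665156 and TMM factors 0.905 to 1.14, so that 1 count is worth less CPM in the treated libraries, and counting intervals are approximate, since the counts are estimates without molecular identifiers.

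The 10 genes, the lists and the markers were chosen with earlier results of these data known, so none is independent support. Named were the 10 genes, the 2 called genes of smallest p per list and comparison, and the 2 genes of most alike pattern per called gene, of those with an official symbol and a mean of at least 1 CPM. Lists were described by counts and medians, not tested as sets. Alternatives were other scaling (RLE, upper quartile), DESeq2 1.42.0, limma-voom (limma 3.58.1), no filter, a stricter filter (1 CPM in 3 libraries), non-robust dispersions, a replicate block, limma on log2(FPKM + 0.1) and log2(FPKM + 1), a fit of only the 6 libraries compared, CPM per kilobase of the longest transcript for the family shares, and leaving out each library. Chi-square tests between libraries of a group found no library deposited more than once. Protein sequences were not used here.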

Additional observations from a re-analysis of the deposited data

How the results depend on the processing

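Of 17 alternatives per gene, all kept the calls of Fos, Jun, Jund and Ier3 in both comparisons of the treated libraries, and those lost for Fosb, Junb and Myc are given beside their values, except that the Myc call against control was also lost with no filter (adjusted p = 0.0562) and with a replicate block (adjusted p = 0.0684). The number of these genes called lower in model against control, 1 in the main analysis, was 2 with DESeq2 (Fos and Junb) and 0 with limma-voom, with the replicate block, with FPKM at either pseudocount and with the 6 libraries alone, and ranged from 0 to 1 when each library was left out. The adjusted p of Fos there was 0.179 with limma-voom, 0.0753 with the replicate block, 0.103 and 0.251 with FPKM at pseudocounts of 0.1 and 1, and 0.000145 with DESeq2. The causes were not tested, apart from the fewer libraries where some were left out.

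Called genes of the pathway lists numbered 3 in model against control, but 12 with DESeq2, 1 with FPKM at pseudocounts of 0.1 and 1, and 0 to 5 with a library left out. They numbered 42 in treated against model, with 25 to 41 when a library was left out (25 without model replicate 1 or model replicate 3), and 64 in treated against control, where no alternative moved the count by over 1.5 times. The calls over all genes moved as well: in model against control 94 were higher and 108 lower in the main analysis, and 444 and 427 with DESeq2. In the main analysis 5.21% of all genes were higher and 4.44% lower in treated against model, and 9.36% and 8.47% in treated against control. Without single libraries the sign changed for uncalled values: the log2 fold change ranged from -3.68 to 3.61 for Fosb and from -0.11 to 0.22 for Ier3 in model against control, and from -0.16 to 2.15 for Egr1 and from -0.066 to 0.26 for Ier2 in treated against control.

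Over all tested genes, calls ranged over the alternatives from 28 to 444 higher and 26 to 427 lower in model against control, from 525 to 1851 and 357 to 1319 in treated against model, and from 1170 to 3314 and 849 to 1962 in treated against control. Same-numbered libraries of different groups did not deviate together (correlations of -0.076 to 0.072 over 9 pairs, -0.060 to 0.063 for different numbers). These correlations cannot tell whether such libraries share a collection or a batch, which the labels do not give. With the replicate block, no other call of the 9 genes changed. Depth limits Fosl1 and Fosb outside the treated group, where at most 4 counts per library were found.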
